A study of Mus musculus with 8 samples.

Results

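The genes described here are 6 ubiquitin ligases of striated muscle that are linked to atrophy (Fbxo32, Trim63, Trim54, Trim55, Fbxo40 and Asb2) and 3 FoxO transcription factors (Foxo1, Foxo3 and Foxo4). They were chosen by name, 9 of the 55487 Ensembl gene identifiers in the count files, and all 9 were among the 14695 genes that passed the filter on low counts. Their transcripts were measured by stranded mRNA sequencing of the left ventricle of C57BL/6 mice at 12 weeks of age. The control group, titled NLC, carries the genotype label wild-type, and the KO group is labelled as lacking GPR116 (ADGRF5, an adhesion G protein-coupled receptor) in myocytes only. Each group held 4 animals, replicates 1 and 2 male and replicates 3 and 4 female. No treatment is named for either group, and the sources used here name neither the Cre line nor the floxed allele behind the KO label.

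Ubiquitin ligases choose the proteins that the proteasome degrades. Fbxo32 (atrogin-1) is the substrate-binding F-box subunit of a cullin complex, and the Trim genes encode the MuRF RING-finger ligases of the sarcomere, with MuRF1 from Trim63, MuRF2 from Trim55 and MuRF3 from Trim54. FoxO factors are held in the cytoplasm when Akt phosphorylates them downstream of insulin and IGF-1, and in wasting muscle they enter the nucleus and switch on Fbxo32, Trim63 and autophagy genes. Much of their activity is thus set on the protein and not by the transcript level.

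The libraries held 25328784 to 39615408 reads in genes, so that each of the 9 genes was covered by 512 reads (Foxo1) to 29443 reads (Asb2) per library. Cardiomyocyte markers, 8 genes such as Myh6 and Tnni3, summed to 71080 to 85570 CPM (counts scaled to a common library size, with TMM-scaled library sizes), and none of the 8 was at 0. Atrial markers differed widely between ventricle pieces and were highest in control replicate 4 (6151 CPM summed over 6 genes, 369.5 to 1492 CPM in the other libraries). All 5 tested atrial markers had a negative log2 fold change in KO (median -3.03, 2 at an unadjusted p under 0.05, 0 after adjustment), as had 4 of 4 tested adipocyte markers (median -1.54, 0 at an unadjusted p under 0.05), and their part in the genotype values was not tested. Adgrf5 lay at 218.2 to 257.0 CPM in controls and 203.0 to 239.8 CPM in KO (log2 fold change -0.05, SE 0.0754, edgeR adjusted p = 0.782). Endothelial cells also transcribe it, so a level in whole tissue does not check the genotype labels. In whole tissue, fewer cells of a type and less RNA per cell cannot be told apart.

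Per length of exon, Trim54 and Asb2 led in control ventricles, and the FoxO factors and Fbxo32 were at the low end. Levels in this paragraph are CPM per kilobase of exon (RPKM), with the union of all annotated exons as length, as mean ± SD of the 4 controls. Trim54 was the most abundant at 222 ± 31.4 RPKM, followed by Asb2 at 173 ± 12.4 RPKM. The ranges of this pair overlapped between control libraries. Trim63 came next at 73.3 ± 11.0 RPKM, apart from its neighbours on both sides. Fbxo40 at 44.0 ± 7.78 RPKM and Trim55 at 34.3 ± 2.32 RPKM overlapped. So did Foxo4 at 20.7 ± 2.05 RPKM and Fbxo32 at 19.5 ± 5.15 RPKM. Foxo3 stood below them at 12.3 ± 1.01 RPKM and Foxo1 lowest at 2.89 ± 0.358 RPKM, neither of them overlapping the gene above it. Compared per length, MuRF1 transcripts were therefore more abundant than atrogin-1 transcripts in every library, with Fbxo32 at 0.236 to 0.302 of the Trim63 level.

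Between KO and control ventricles, none of the 9 genes passed the test across all genes. The comparison is of whole left ventricle and gives no level per myocyte. The largest fitted differences were small: Trim54 stood 19.0% higher in KO (95% interval 3.30% to 37.2%) and Foxo1 at -14.7% (-24.9% to -3.18%). By edgeR's quasi-likelihood test with sex as an additive term and Benjamini-Hochberg adjustment over 14695 genes, 0 of 9 passed at 0.05, where 0.102% of all genes did. The adjusted p-values of the 9 genes ran from 0.350 to 0.979. At an unadjusted p under 0.05, Trim63 and Foxo1 were lower and Trim54 higher, 3 of 9 genes against 11.9% of all genes (5.77% higher, 6.18% lower). A positive log2 fold change was seen in 4 of 9, against 49.0% of all genes, and in 0 of 9 did all KO libraries lie apart from all controls, against 6.25%. The median log2 fold change of the 9 genes was -0.11, and that of all tested genes -0.01. DESeq2 and limma voom also gave 0 of 9, with 1.13% and 0.0885% of all genes called.

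**Figure D1:**
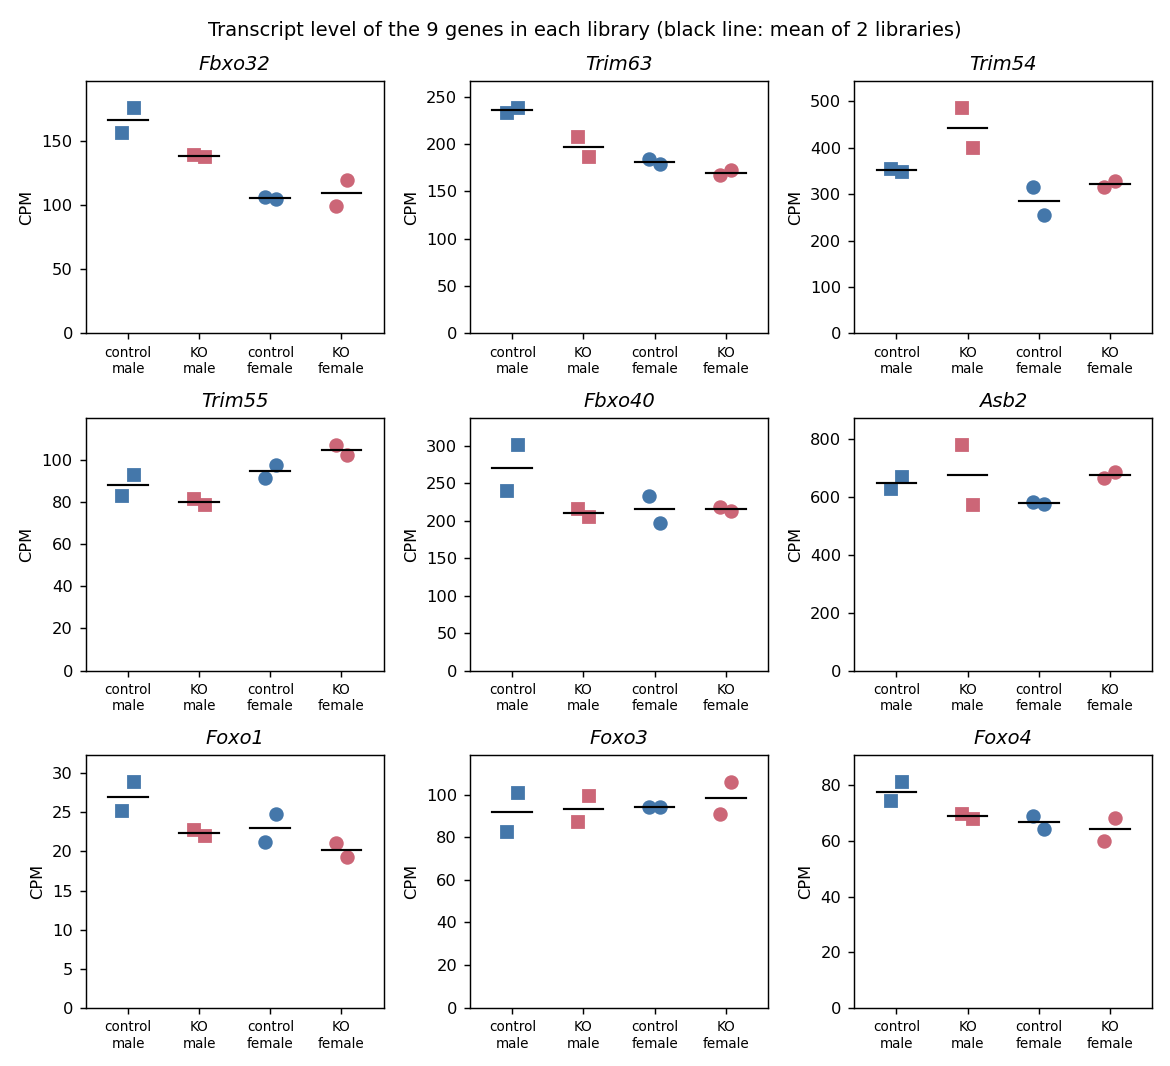
Level of each of the 9 genes in CPM (vertical axis from 0) in the 8 libraries, split by genotype and sex, where squares are males, circles are females, blue is control, red is KO and the black line is the mean of 2 libraries. KO and control libraries overlap for every gene, while the 4 male libraries lie above the 4 female libraries for Fbxo32, Trim63 and Trim54.

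Fbxo32, encoding atrogin-1 (chromosome 15, 58175879 to 58214932, GRCm38), reached 157.0, 176.1, 106.7 and 104.8 CPM in control replicates 1 to 4. In KO replicates 1 to 4 it was at 139.5, 137.6, 99.22 and 119.6 CPM. The highest libraries were the 2 male controls and the lowest was a female KO, so that the genotypes overlapped. On the log2 scale KO stood at -0.11 relative to control (SE 0.0895, adjusted p by edgeR = 0.611), which allows for a change of -19.2% to 6.43%. It stood at -0.05 without control replicate 2 and at -0.20 without KO replicate 4.

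Trim63, encoding MuRF1, which binds titin at the M-band and ubiquitinates thick-filament proteins, lies on chromosome 4 at 134315120 to 134329629. Control replicates 1 to 4 had 233.0, 237.9, 184.3 and 178.6 CPM, and KO replicates 1 to 4 had 207.2, 186.2, 167.0 and 172.1 CPM. In both sexes the 2 KO libraries lay below the 2 controls, but male KO libraries were above female controls. How many of all genes show such an order within each sex was not computed. KO stood at -0.18 on the log2 scale (SE 0.0683, adjusted p by edgeR = 0.359), and this stayed between -0.20 and -0.14 over the 19 other settings tried.

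Trim54, encoding MuRF3, which associates with microtubules and the Z-disc, lies on chromosome 5 at 31116712 to 31137630. Control replicates 1 to 4 reached 355.0, 347.9, 316.3 and 256.2 CPM, and KO replicates 1 to 4 reached 485.8, 400.0, 315.0 and 328.6 CPM. KO replicate 1 was the highest library of all, and KO replicate 3 lay level with control replicate 3. Control replicate 4, the library with the highest atrial markers, was the lowest, and the part of atrial tissue in the Trim54 value was not tested. KO stood at 0.25 on the log2 scale (SE 0.0921, adjusted p by edgeR = 0.350), with values from 0.17 to 0.33 over the other settings. Skeletal muscle markers, a list without Trim54, had the same sign. All 5 tested genes of 9 (Acta1, Atp2a1, Mylpf, Tnnt3 and Ckm) had a positive log2 fold change, as had 49.0% of all genes. Of these 5, 3 were higher at an unadjusted p under 0.05 (5.77% of all genes) and 0 passed after adjustment. The 9 markers summed to 2964 to 4414 CPM in KO and 2730 to 3525 CPM in controls, highest in KO replicate 1. Myh4, Myh1, Myh2 and Myod1 did not pass the filter on low counts, and Myh4 had no reads. The part of these markers in the Trim54 value was not tested.

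Trim55, encoding MuRF2, another titin-binding member of the family on chromosome 3 (19644474 to 19692421), showed no net difference. Controls had 82.91, 93.09, 91.49 and 97.65 CPM, and KO libraries had 81.51, 78.44, 107.0 and 102.5 CPM. Both male KO libraries were below both male controls, and both female KO libraries were above both female controls. The share of all genes with such an order within each sex was not computed. Over all libraries KO stood at 0.01 on the log2 scale (SE 0.0772, edgeR adjusted p = 0.979), with an interval from -10.9% to 13.0%.

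A ratio of MuRF genes taken within each library does not depend on the scaling between libraries. Per kilobase of exon, the Trim54 to Trim63 ratio was 3.02, 2.89, 3.40 and 2.84 in control replicates 1 to 4 and 4.64, 4.25, 3.73 and 3.78 in KO replicates 1 to 4. Every KO library was above every control, with means of 3.04 ± 0.252 and 4.10 ± 0.429 (SD, n = 4 each). The ratio was chosen after the values of both genes had been seen, so it is given without a test. Trim54 was fitted higher and Trim63 lower in KO, which by itself favours such a separation. The share of gene pairs that separate in this way was not computed. The Trim55 to Trim63 ratio, by contrast, separated the sexes, at 0.380 to 0.450 in males and 0.531 to 0.685 in females, and overlapped between genotypes. Trim63 was fitted higher and Trim55 lower in males, which likewise favours this separation. This ratio too is given without a test, and the share of gene pairs that separate the sexes was not computed.

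**Figure D2:**
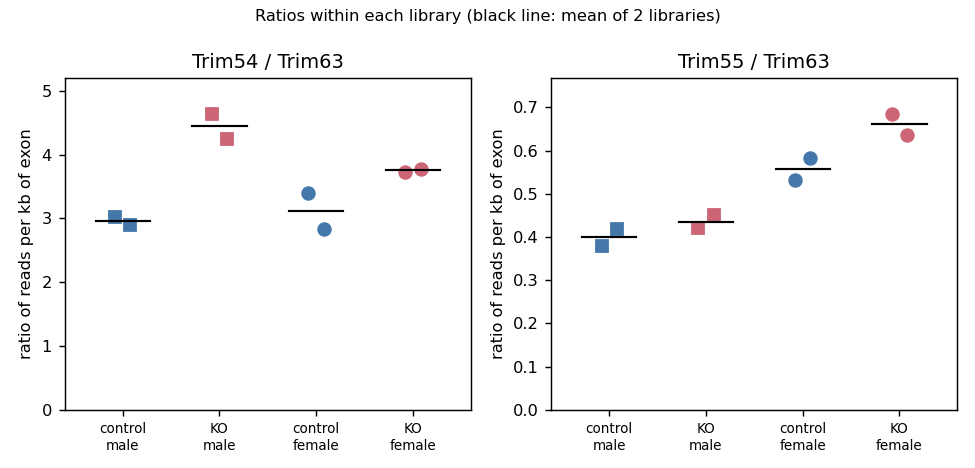
Ratios of Trim54 to Trim63 (left) and of Trim55 to Trim63 (right) within each library, from reads per kilobase of exon, with the axis from 0 and the same symbols for sex and genotype as in the plot of levels. The KO libraries lie at 3.73 to 4.64 on the left, above the controls at 2.84 to 3.40, and on the right the females lie at 0.531 to 0.685, above the males at 0.380 to 0.450. The left ratio was chosen after the values had been seen. For the right ratio, Trim63 was fitted higher and Trim55 lower in males, and neither ratio was tested.

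The promoters of Trim63 and Trim54, the genes of the ratio chosen above, are shown as a description. Each line gives the 250 bases before the RefSeq start site, 5′ to 3′ on the gene's strand, in build GRCm38.p6. The Trim63 window is chr4:134314870-134315119 and the Trim54 window chr5:31116362-31116611, both on the plus strand. Capitals mark a match to the FoxO motif GTAAACA or to AGAACA, the hexamer that a glucocorticoid receptor monomer contacts, on either strand.
Trim63: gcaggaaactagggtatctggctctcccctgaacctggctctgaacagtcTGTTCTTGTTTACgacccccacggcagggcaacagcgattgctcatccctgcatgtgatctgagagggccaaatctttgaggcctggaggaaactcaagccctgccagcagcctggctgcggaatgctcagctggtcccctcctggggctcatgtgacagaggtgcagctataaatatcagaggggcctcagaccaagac
Trim54: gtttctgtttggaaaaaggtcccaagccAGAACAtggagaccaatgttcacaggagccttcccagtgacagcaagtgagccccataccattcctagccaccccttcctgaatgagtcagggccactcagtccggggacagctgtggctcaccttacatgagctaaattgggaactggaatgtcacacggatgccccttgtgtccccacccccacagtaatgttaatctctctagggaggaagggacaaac

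In the Trim63 window the FoxO match begins 194 bases before the start site, on the minus strand, and abuts the hexamer, which begins 200 bases before it. Trim54 holds no FoxO match in this window and 1 hexamer that begins 222 bases before the start. Among 32817 RefSeq windows of this length, 3.16% hold GTAAACA and 16.1% hold AGAACA, counting both strands. Of the 9 genes 6 had an entry, with 8 windows in all, and the Trim63 window was the only one of the 8 with a FoxO match. The hexamer, searched after the sequence had been seen, stood in 3 of the 8 windows. Fbxo32, Trim55 and Foxo4 had no entry. E-boxes (CANNTG), the sites of myogenic factors, stood in 6 of the 8 windows and in 66.2% of all windows. The full glucocorticoid receptor palindrome, the hexamer and its reverse complement with any 3 bases between them, stood in 0 of 8 windows and in 0.00914% of all. A match describes these letters and does not show that a factor binds there.

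Of the other ligases, Fbxo40, a muscle F-box protein that targets the insulin receptor substrate IRS1 (chromosome 16, 36963460 to 36990467), had a wide spread among controls. Controls were at 240.2, 300.7, 232.5 and 197.4 CPM, while KO libraries lay close together at 216.0, 205.2, 218.3 and 212.5 CPM. Control replicate 2 was the highest and control replicate 4 the lowest of all 8. KO stood at -0.18 on the log2 scale (SE 0.104, adjusted p by edgeR = 0.486), and at -0.08 without control replicate 2, with -0.26 as the other end of the range over the settings.

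Asb2, the substrate receptor of a cullin-5 complex that degrades filamins and desmin (chromosome 12, 103321142 to 103356001), had the most reads of the 9 genes. Control replicates 1 to 4 were at 628.6, 668.5, 582.5 and 573.9 CPM, and KO replicates 1 to 4 at 778.7, 572.8, 664.8 and 686.2 CPM. KO replicates 1 and 2, both male, were the highest and the lowest library. KO stood at 0.14 on the log2 scale (SE 0.0966, adjusted p by edgeR = 0.541), with an interval from -4.92% to 28%. It stood at 0.07 without KO replicate 1 and at 0.24 without KO replicate 2.

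Among the FoxO factors, Foxo1 on chromosome 3 (52268336 to 52353221), which is also strongly transcribed in endothelial cells, was measured at 25.19, 28.84, 21.25 and 24.79 CPM in control replicates 1 to 4. KO replicates 1 to 4 were at 22.77, 22, 21.14 and 19.24 CPM. The 3 highest libraries were controls, and control replicate 3 lay among the KO libraries. KO stood at -0.23 on the log2 scale (SE 0.0826, adjusted p by edgeR = 0.350), between -0.28 and -0.18 over the other settings. Endothelial markers moved the same way: 6 of 6 had a negative log2 fold change (median -0.26), 4 of them at an unadjusted p under 0.05 and 0 after adjustment. Of all genes 49.0% were positive and 6.18% were lower at that p. The endothelial markers summed to 717.9 to 796.9 CPM in KO and 776.5 to 945.5 CPM in controls, and their part in the Foxo1 value was not tested.

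Foxo3 on chromosome 10 (42181841 to 42276755), the FoxO factor best known for driving Fbxo32 in muscle, was measured at 82.46, 100.9, 93.92 and 94.09 CPM in control replicates 1 to 4. KO replicates 1 to 4 were at 87.14, 99.33, 90.79 and 105.7 CPM. The groups covered nearly the same range, and KO stood at 0.04 on the log2 scale (SE 0.0839, adjusted p by edgeR = 0.839). For the X-linked Foxo4 (101254528 to 101260873) the controls were at 74.40, 81.13, 69.09 and 64.49 CPM and the KO libraries at 69.87, 68.06, 60.04 and 68.35 CPM. Here the 2 male controls were highest and a female KO lowest, with a log2 fold change of -0.12 (SE 0.0679, edgeR adjusted p = 0.491).

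For 5 of these genes an annotated gene overlaps, so that their counts can in principle gain its reads or lose reads set aside as ambiguous. For overlaps on the opposite strand this depends on the strand setting of the counting, which is not known. The opposite-strand transcripts over Fbxo32, Trim54, Asb2 and Foxo1 had 0 to 7 reads per library, and the same-strand BC002189 within Trim55 had 18 to 62. Each is far below the member it overlaps, but reads set aside as ambiguous are in none of these counts.

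Within males, the median log2 fold change of the 9 genes in KO was -0.17, where that of all tested genes was 0.01. In males 5 of 9 genes had an unadjusted edgeR p under 0.05, Fbxo32 (log2 fold change -0.27, SE 0.108), Trim63 (-0.26, SE 0.0908), Fbxo40 (-0.36, SE 0.126) and Foxo1 (-0.27, SE 0.118) lower and Trim54 (0.33, SE 0.128) higher, against 17.5% of all genes (9.01% higher, 8.45% lower). None passed after adjustment (0 of 9, adjusted p 0.218 to 0.936, with 0.0408% of all genes called). In females 0 of 9 had an unadjusted p under 0.05, against 5.12% of all genes, and 0 of 9 passed after adjustment, with 0.0% of all genes called. The female log2 fold changes were 0.05 for Fbxo32, -0.10 for Trim63, 0.003 for Fbxo40, -0.19 for Foxo1 and 0.17 for Trim54. With 2 animals per group, single libraries moved these values. In males Fbxo40 stood at -0.19 and Foxo1 at -0.17 without control replicate 2, and Trim54 at 0.19 without KO replicate 1. In females Trim54 stood at 0.025 and Foxo1 at -0.074 without control replicate 4, and at 0.33 and -0.29 without control replicate 3. Female Foxo1 stood at -0.12 without KO replicate 4.

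A difference between the sexes in the response is not shown. The interaction of sex and genotype was -0.36 for Fbxo40 (male minus female, SE 0.178), -0.31 for Fbxo32 (SE 0.153) and -0.29 for Trim55 (SE 0.127), each with an edgeR adjusted p of 0.648. None of the 9 genes had an unadjusted p under 0.05 (7.46% of all genes did), and 0 of 9 passed after adjustment, where 0.0% of all genes were called. Each sex and genotype has 2 animals, which limits these contrasts. The sample descriptions give the male KO libraries the numbers 1 and 2 and the male controls 3 and 4, without saying what the number stands for, so in males anything tied to it and genotype cannot be told apart.

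**Figure D3:**
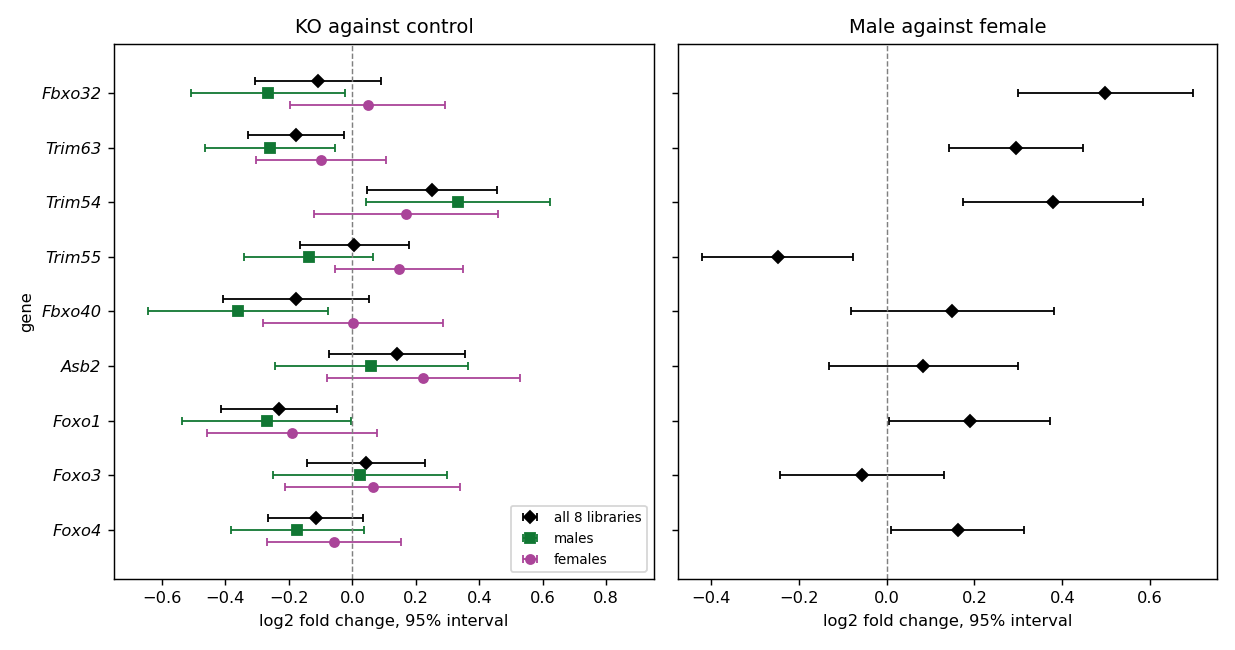
Log2 fold change of each gene with its 95% interval from edgeR, for KO against control over all 8 libraries, in males and in females (left), and for male against female over all 8 libraries (right). On the left the intervals of Trim63, Trim54 and Foxo1 over all libraries exclude 0 before adjustment, and on the right Fbxo32 lies farthest from 0 at 0.50.

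Between the sexes, Fbxo32, Trim63 and Trim54 stood higher in males. Fbxo32 averaged 153 ± 18.0 CPM in males and 108 ± 8.60 CPM in females (SD, n = 4 each), a 1.41-fold difference (95% interval of the change 23.0% to 62.1%). Trim54 was 1.30-fold higher (397 ± 63.4 and 304 ± 32.5 CPM) and Trim63 1.23-fold higher (216 ± 24.0 and 176 ± 7.55 CPM) in males. For these 3 genes the 4 male libraries lay above all 4 female libraries, as they did for 3.84% of all tested genes (6.87% in either direction). Trim55 had the opposite sign, at 0.843 of the female level (84.0 ± 6.35 and 99.7 ± 6.67 CPM), with some overlap between the sexes.

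After adjustment none of these sex differences passed by edgeR. The adjusted p was 0.0663 for Fbxo32 (log2 fold change 0.50, SE 0.0897), 0.149 for Trim63, 0.176 for Trim54 and 0.245 for Trim55, so that 0 of 9 genes were called, where 0.299% of all genes were. At an unadjusted p under 0.05, 6 of 9 genes differed, 5 higher in males and 1 lower, against 12.8% of all genes (6.79% higher, 6.04% lower), and 7 of 9 were positive, against 48.3% of all genes. DESeq2 called Fbxo32 (adjusted p = 8.83e-05), Trim63 (0.00701) and Trim54 (0.00962) and 1.59% of all genes, and limma voom called 0 of 9 and 0.272% of all genes. By edgeR, Fbxo32 passed without KO replicate 4 (adjusted p = 0.0290) and Trim54 without control replicate 3 (0.0357).

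Other measures also differed between the male and female libraries. In the sample descriptions the 4 male libraries carry the numbers 1 to 4 and the 4 female libraries 5 to 8, with no word on what the number stands for, so anything tied to it and sex cannot be told apart. Mitochondrially encoded genes took 19.56% to 21.92% of reads in males and 17.36% to 18.31% in females, and multiply mapped reads 18.81% to 20.30% and 16.84% to 17.92%, neither of them overlapping. With the mitochondrially encoded genes left out of the fit, the log2 differences of Fbxo32, Trim63 and Trim54 were 0.50, 0.30 and 0.38. That step changes little but the scaling between libraries, so it does not test what goes along with the mitochondrial share. The part of either share in the sex differences was not tested. Macrophage markers were positive in males for 6 of 6 genes and 1 was called, where 48.3% of all genes were positive and 0.299% called, with a summed level of 216.5 to 287.6 CPM in males and 172.5 to 210.2 CPM in females. Erythroid markers were positive for 5 of 5 (median 1.01, 2 at an unadjusted p under 0.05), with sums of 143.5 to 313.5 CPM in males and 58.84 to 233.4 CPM in females. Atrial markers were negative for 5 of 5 tested (median -2.84, 2 at an unadjusted p under 0.05), at 406.6 to 870.8 CPM in males and 369.5 to 6151 CPM in females. Markers of proliferating cells were negative for 6 of 6 (median -0.49, 1 at an unadjusted p under 0.05), at 15.14 to 24.56 CPM in males and 22.15 to 39.88 CPM in females. Both tested lymphocyte markers were positive, at sums of 2.774 to 3.523 and 1.541 to 2.733 CPM. The part of these marker lists in the sex differences was not tested. Cardiomyocyte markers summed to 71080 to 84830 CPM in males and 75780 to 85570 CPM in females.

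Across the 8 libraries, with neither sex nor genotype removed, Fbxo32 and Trim63 varied together, and Foxo4 was the FoxO factor whose level followed both. Over 8 libraries Pearson's r of log2 CPM was 0.909 for Fbxo32 with Trim63 (exact permutation p = 0.00179, adjusted over 7 relations 0.00417, Spearman's rho 0.929, p = 0.00223, adjusted 0.0156). It was 0.899 for Foxo4 with Fbxo32 (exact permutation p = 0.000694, adjusted 0.00243, rho 0.905, p = 0.00456, adjusted 0.0160). For Foxo4 with Trim63 it was 0.894 (exact permutation p = 0.000645, adjusted 0.00243, rho 0.881, p = 0.00724, adjusted 0.0169). Many genes tracked the ligases as closely: 0.685% of the 12124 genes compared had an r with Fbxo32 of at least that of Foxo4, and 0.346% an r with Trim63 of at least that of Fbxo32. Without the 2 libraries farthest from the median on the x axis (control replicate 2 and KO replicate 3 in all 3 cases), r was 0.809 (exact permutation p = 0.0472), 0.786 (0.05) and 0.841 (0.0361) in the order given.

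Fbxo32, Trim63 and Foxo4 were fitted higher in males, though none of them passed after adjustment by edgeR. The relation was therefore also computed on deviations from the mean of each sex, a step added after the data were seen. Then r was 0.905 for Foxo4 with Fbxo32 (exact permutation within sex p = 0.00694, adjusted 0.0486), 0.805 for Foxo4 with Trim63 (p = 0.0365, adjusted 0.128) and 0.708 for Fbxo32 with Trim63 (p = 0.118, adjusted 0.207). The second and the third no longer passed. Genotype means were not removed. With 4 libraries per sex or genotype no value is given within one.

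Foxo1 and Foxo3 gave lower values. For Foxo1 with Trim63 r was 0.801 (exact permutation p = 0.0149, adjusted 0.0260, rho 0.833, p = 0.0154, adjusted 0.0269), but 0.613 (p = 0.190) without the farthest libraries on the x axis, control replicate 2 and KO replicate 4, which also narrows the range. Of this pair, leaving out control replicate 2 alone gave 0.659 and KO replicate 4 alone 0.776, so the relation rests in part on control replicate 2. With 7 libraries in place of 8, the call was lost in 6 of the 8 sets (all but those without control replicate 4 or KO replicate 1), with r at 0.776 to 0.801 in the 5 that kept control replicate 2 (adjusted exact permutation p 0.0528 to 0.0625). It was also lost without TMM scaling (r = 0.742, adjusted exact permutation p = 0.0654) and with sex means removed (0.716, adjusted exact permutation p = 0.182). Foxo1 with Fbxo32 gave 0.653 (exact permutation p = 0.0779, adjusted 0.109, rho 0.667, p = 0.0831, adjusted 0.116) and passed without control replicate 4 (r = 0.833, adjusted exact permutation p = 0.0231), while without control replicate 2 and KO replicate 4 it gave 0.458 (exact permutation p = 0.351). Foxo3 gave -0.05 with Fbxo32 (exact permutation p = 0.902, adjusted 0.902, rho 0.00, p = 1.00, adjusted 1.00) and -0.34 with Trim63 (exact permutation p = 0.411, adjusted 0.479, rho -0.17, p = 0.703, adjusted 0.821). Without control replicate 1 and KO replicate 4 these were 0.480 (exact permutation p = 0.332) and 0.362 (0.481).

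**Figure D4:**
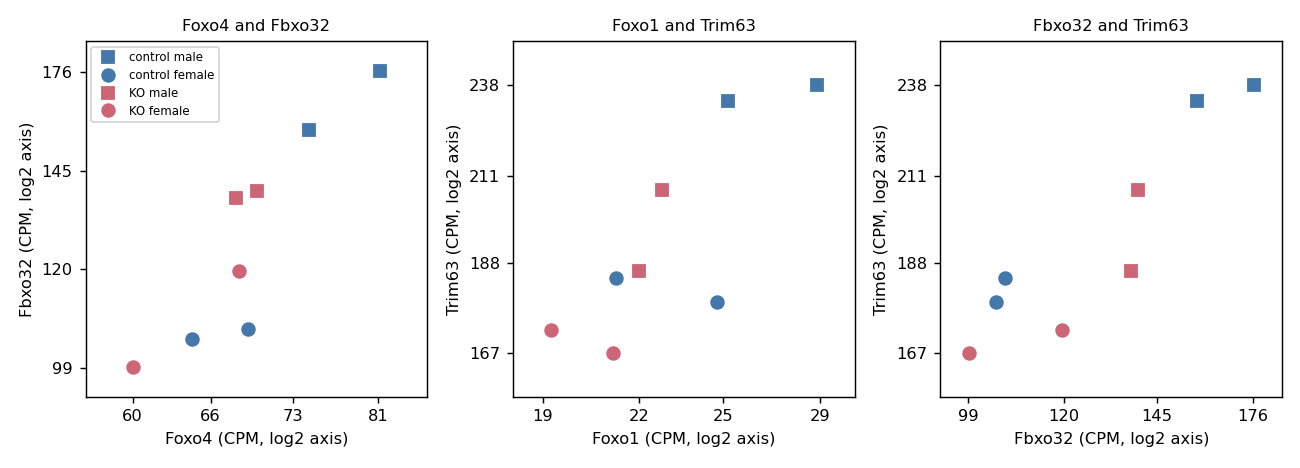
Levels of Fbxo32 against Foxo4, of Trim63 against Foxo1 and of Trim63 against Fbxo32 in the 8 libraries, in CPM on log2 axes, with squares for males, circles for females, blue for control and red for KO. The 2 male controls sit at the upper right of each panel, and the 4 females lie lower than the 4 males on every vertical axis.

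The genes whose pattern over the 8 libraries was most like Fbxo32, given as a description, were Pgm1 (r = 0.974), a phosphoglucomutase of glycogen metabolism, the mitochondrial tRNA gene mt-Tt (0.969) and Scap (0.967), which escorts the sterol regulator SREBP. For Trim63 they were Clpb (0.976), a mitochondrial disaggregase, Me3 (0.973), a mitochondrial malic enzyme, and Micu2 (0.973), a regulator of mitochondrial calcium uptake. Trim63 came at rank 64 for Fbxo32, and Fbxo32 at rank 42 for Trim63.

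The wider pathway was read from 8 further lists, and in KO against control 1 gene of these lists passed. The lists were drawn up with earlier results of these data known, so a call within a list is no independent support for it. Phlda3, a p53 target that restrains Akt and so acts upstream of FoxO, was at 13.91, 11.83, 16.33 and 17.53 CPM in control replicates 1 to 4 and at 26.92, 25.66, 30.05 and 24.24 CPM in KO replicates 1 to 4. It rose 1.81-fold (log2 fold change 0.85, SE 0.106, edgeR adjusted p = 0.0247). All KO libraries lay above all controls, as for 3.22% of all genes. The call was lost when control replicate 1 or 2, or KO replicate 1, 2 or 3, was left out (adjusted p by edgeR 0.0572 to 0.137), and also with a replicate block (0.0529) and without the sex term (0.0594), while the log2 fold change stayed at 0.77 to 0.86 in these settings. Among the 29 FoxO regulators 1 passed higher and 0 lower, where 0.102% of all genes passed, 6 had a positive log2 fold change, where 49.0% of all genes had, and the median was -0.07, where that of all genes was -0.01. The insulin receptor gene Insr stood at -0.22 (SE 0.0754), Pik3ca, a catalytic subunit of PI3 kinase, at -0.21 (SE 0.0784) and Pdpk1, the kinase that activates Akt, at -0.23 (SE 0.0947).

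FoxO target genes showed no call between the genotypes, where 0.102% of all genes were called. Of 26, 1 was higher and 3 lower at an unadjusted p under 0.05 (5.77% and 6.18% of all genes), with a median log2 fold change of -0.04. Eif4ebp1, the translation inhibitor 4E-BP1, stood at 0.27 (SE 0.0878), Fbxo30, another ligase of wasting muscle, at -0.22 (SE 0.0841) and the autophagy kinase Ulk2 at -0.19 (SE 0.0799). Between the sexes the same list had 1 of 26 genes called, where 0.299% of all genes were. At an unadjusted p under 0.05, 9 of 26 were higher in males and 1 lower (6.79% and 6.04% of all genes). Of the 26, 21 were positive, against 48.3% of all genes, with a median of 0.15, where the median of all genes was -0.01. The called gene was Pdk4, which blocks entry of pyruvate into the citric acid cycle. Males had 306.2, 201.6, 165.6 and 288.1 CPM in control replicates 1 and 2 and KO replicates 1 and 2, and females had 83.09, 126.0, 86.19 and 97.70 CPM in control replicates 3 and 4 and KO replicates 3 and 4. The log2 difference was 1.29 (SE 0.196, edgeR adjusted p = 0.0264), a call lost when control replicate 1 or any of KO replicates 2, 3 and 4 was left out (adjusted p by edgeR 0.0711 to 0.141) and without TMM scaling (0.0505).

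Next in that order for the sexes came Irs2, an insulin receptor substrate, at 0.74 (SE 0.176, edgeR adjusted p = 0.163), Pik3ip1, an inhibitor of PI3 kinase, at 0.37 (SE 0.0914, 0.176) and Gadd45a, a stress gene of atrophying muscle, at 0.63 (SE 0.156, 0.179). DESeq2 called all 3 (adjusted p 0.00479, 0.0241 and 0.00999) and 1.59% of all genes. Hdac4, a deacetylase that relays denervation to Fbxo32 and Trim63, was the other list gene called between the sexes, where 0.299% of all genes were. It had 24.59, 27.04, 24.78 and 25.49 CPM in the 4 males and 18.35, 17.43, 16.19 and 19.35 CPM in the 4 females (log2 difference 0.51, SE 0.0797, edgeR adjusted p = 0.0296). Leaving out any library but control replicate 3 or KO replicate 4 lost the call (adjusted p by edgeR 0.0849 to 0.141), as did the fit without TMM scaling (0.0635). These 5 genes were named for sex after their values were seen.

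In the machinery around the ligases no gene was called between genotypes, where 0.102% of all genes were. A positive log2 fold change was seen in 49.0% of all genes. Of 10 cullin partners 7 had a positive log2 fold change, with the neddylation enzyme Ube2m at 0.29 (SE 0.0702, edgeR adjusted p = 0.212), the ubiquitin-like modifier Nedd8 at 0.17 (SE 0.0779), Elob at 0.23 (SE 0.121) and Cul5, the scaffold that Asb2 uses, at -0.20 (SE 0.0970). Of 33 proteasome subunits 25 were positive, with a median of only 0.04 and a range of -0.13 to 0.22. Adrm1, a ubiquitin receptor of the proteasome, stood at 0.21 (SE 0.0743). Among ubiquitin, E1 and E2 genes the E2 enzymes Ube2g1 (-0.23, SE 0.0768), Ube2d3 (-0.18, SE 0.0734) and Ube2b (-0.13, SE 0.0619) had the smallest p-values together with Rps27a (0.17, SE 0.0826), and the median of 15 was 0.03.

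Other ubiquitin ligases of muscle had a median of -0.03 over 25 genes, 10 of them positive. For this and the following lists, 49.0% of all genes were positive. Smurf2, a ligase of the TGF-β pathway, stood at -0.33 (SE 0.0943, edgeR adjusted p = 0.266), Rnf207, a cardiac ligase linked to the QT interval, at 0.52 (SE 0.190) and Klhl40, a kelch protein of the thin filament, at 0.28 (SE 0.102). In the list of upstream atrophy signals 20 of 22 genes were measured and 7 were positive, with the glucocorticoid receptor gene Nr3c1 at -0.26 (SE 0.0863), Mef2c at -0.26 (SE 0.0954), Nfkb1 at -0.14 (SE 0.0689) and Mef2d at 0.11 (SE 0.0617). Of 18 measured substrates and binding partners 11 were positive. Myh7, the slow myosin heavy chain, stood at 0.64 (SE 0.176, edgeR adjusted p = 0.246), Des, desmin, at 0.22 (SE 0.0682), Tnnt2, cardiac troponin T, at 0.18 (SE 0.0768) and Ppp3ca, the calcineurin subunit that atrogin-1 targets, at -0.31 (SE 0.0914). Single libraries moved some of these list values by over 1.5 times. Without control replicate 2, Rnf207 stood at 0.31, Cul5 at -0.12, Rps27a at 0.091, Elob at 0.11 and Ulk2 at -0.11, and without KO replicate 1, Elob stood at 0.11, Nedd8 at 0.095 and Eif4ebp1 at 0.17. DESeq2 called Myh7 (adjusted p = 0.0134) and Ube2m (0.0223), and 1.13% of all genes. Elob, Nedd8, Rnf207 and Myh7 overlap Srrm2, Gmpr2, Icmt and the antisense RNA Mhrt on the opposite strand, at 4688 to 10278, 272 to 538, 1296 to 2025 and 2061 to 4231 reads per library, so their values are uncertain.

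**Figure D5:**
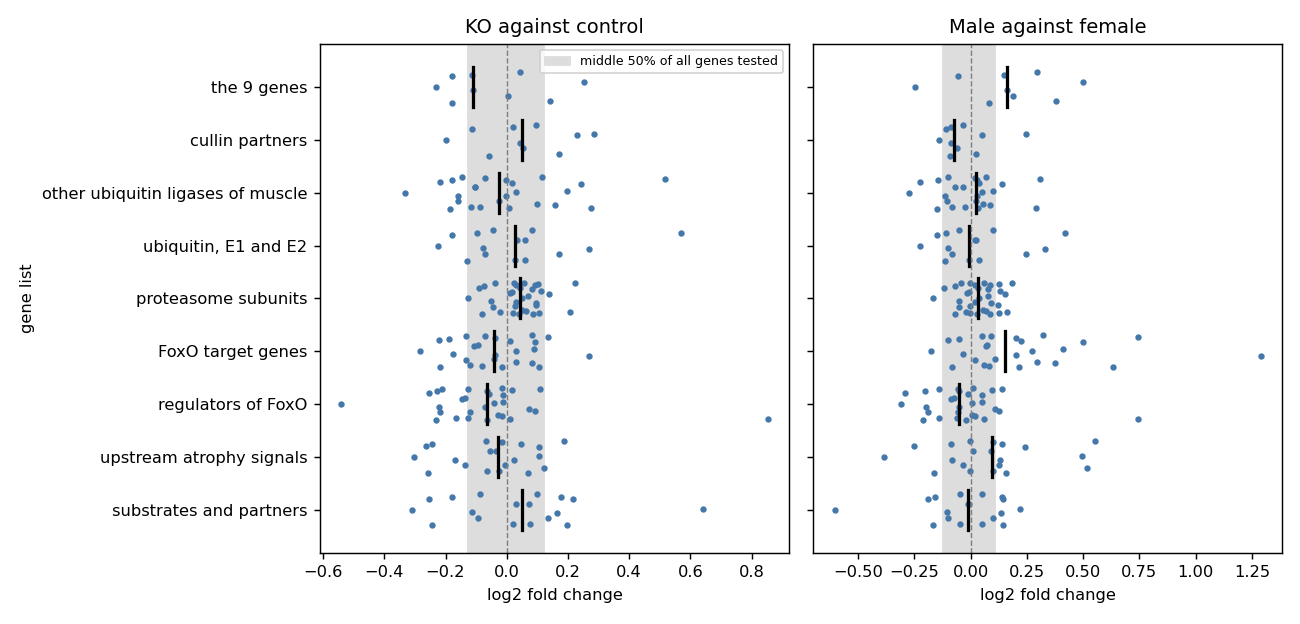
Log2 fold change of each tested gene (blue points, spread vertically for legibility) in the 9 genes and 8 further lists, for KO against control (left) and male against female (right), with the median of each list as a black bar and the middle 50% of all tested genes in grey. For KO against control every list median lies inside the grey band, and for male against female those of the 9 genes (0.16) and of the FoxO targets (0.15) lie to its right.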

How the data were processed

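The authors deposited raw read counts per Ensembl gene, 1 file per library, with 5 summary entries that name no gene. Multiply mapped reads made up 16.84% to 20.30%, reads beyond any gene 3.07% to 4.08% and ambiguous reads 1.26% to 1.38%, and all were left out of library sizes and tests. GRCm38 is the build in the submitters' processing notes, which list DESeq2, HTSeq and STAR. The sources used here give no version, annotation or strand setting. Names, spans and exon lengths came from GENCODE M21 (55227 identifiers matched), promoter sequences from RefSeq.

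Tests ran on the deposited counts with edgeR 4.0.16 in R 4.3.3 (filterByExpr by genotype, TMM, glmQLFit and glmQLFTest, sex as an additive term, Benjamini-Hochberg over all tested genes, threshold 0.05). A fit of the 4 sex and genotype means gave the contrasts within each sex and the interaction. Log2 CPM used a prior count of 2. The fits were tested on simulated data. No pair of libraries in a group agreed within sampling noise (chi-square per degree of freedom 15.3 to 41.7), and nothing beyond the labels says how animals were drawn. A count of 0 would allow up to 0.0793 to 0.122 CPM (3 counts, counting error only).

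Members and lists were chosen with earlier results of these data known. All 9 members were named, and from each list the called genes and up to 4 with the smallest p. Likeness was ranked among tested genes with a mean of at least 1 CPM and no predicted or clone symbol. The hexamer AGAACA was searched after the sequence had been seen. Alternatives comprised DESeq2 1.42.0, limma voom (limma 3.58.1), other scalings and filters, no sex term, a replicate block, leaving out each library in turn and a threshold of 0.1.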

Additional observations from a re-analysis of the deposited data

Results flagged for a closer look

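Trim55 had opposite signs in the sexes: both male KO libraries lay below both male controls (78.44 and 81.51 against 82.91 and 93.09 CPM), and both female KO libraries above both female controls (107.0 and 102.5 against 91.49 and 97.65 CPM). The interaction was -0.286 on the log2 scale (male minus female, SE 0.127) with an edgeR adjusted p of 0.648. Each sex has only 2 libraries per genotype, and the share of all genes with such an order was not computed.

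Among 44 named genes, 3 of 88 groups of 4 libraries had a library far from the other 3, which about 1 group in 20 would have by chance. Elob was at 124.5 CPM in KO replicate 1, with the next KO library at 96.62 CPM. Psmb5 was at 62.44 CPM in the same library, with the next at 44.79 CPM. Rnf207 was at 155.0 CPM in KO replicate 3, with the next at 205.1 CPM. None of the 9 ligase and FoxO genes had such a library in either group. Each group holds both sexes, so a difference between the sexes widens its range and can hide such a library.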

How the results depend on the processing

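In KO against control 0 of the 9 genes passed under any of the 20 settings, and in this contrast Fbxo32, Trim63, Trim54, Fbxo40, Asb2, Foxo1 and Foxo4 kept their sign in all of them. The number of genes called across the table was less stable. For KO against control, from 15, it was 150 by DESeq2, 621 with no low count filter, 6 without the sex term, 30 at a threshold of 0.1 and 0 to 50 with 1 library left out (0 without any of control replicates 1 and 2 and KO replicates 2 and 3, 4 without KO replicate 1 or 4, 50 without control replicate 3). Within males, from 6, it was 314 by DESeq2, 1007 with no filter and 0 to 59 with 1 library left out. Within females, from 0, it was 17, 277 and 0 to 81, and for the interaction, from 0, it was 15, 243 and 0 to 8. For male against female, from 44, it was 216, 742 and 16 to 176, and of the 9 genes 3 passed by DESeq2, 3 with no filter and 0 to 1 with 1 library left out. With no filter Fbxo40 passed within males (1 of 9, -0.361, adjusted p = 0.0488), and among list genes Myh7, Ube2m, Smurf2, Rnf207 and Ppp3ca passed for KO against control. The cause was not tested.

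Signs turned where the fitted change was close to 0. For KO against control Trim55 (0.01) was -0.01 without TMM and -0.042 to 0.065 with 1 library left out, and Foxo3 (0.04) was -0.009 to 0.106. Within males Foxo3 was -0.116 to 0.172 and Asb2 -0.18 to 0.259. Within females Fbxo40 was -0.039 without TMM and -0.11 to 0.127 with 1 library left out, Foxo4 -0.154 to 0.034, Fbxo32 -0.092 to 0.178 and Foxo3 -0.05 to 0.17. The interaction of Foxo3 was 0.016 without TMM and -0.179 to 0.109 with 1 library left out, that of Foxo1 -0.197 to 0.025 and that of Asb2 -0.404 to 0.035. The relation of Foxo3 with Fbxo32 was 0.45 with sex means removed and -0.374 to 0.311 with 1 library left out, and that of Foxo3 with Trim63 -0.74 to 0.032.

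The groups share replicate numbers, but the labels do not say that a number marks a shared litter or day. Deviations of same-numbered libraries correlated at 0.246, 0.094, -0.208 and 0.087 for numbers 1 to 4, and not every library correlated best with its own number, so the numbers were not taken as pairs. With the replicate block 0 genes were called in KO against control.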
